A study of Homo sapiens with 9 samples.

Results

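A set of 9 receptor tyrosine kinases known from gliomas, EGFR, ERBB2, ERBB3, PDGFRA, PDGFRB, MET, FGFR1, AXL and IGF1R, were followed through RNA-seq and iCLIP of U251 cells, an established human glioblastoma line. They were chosen by name, with earlier results of these data known, and make up 9 of the 20848 genes and 215 of the 206550 exons that were counted. All 9 were found under these symbols. They carry 8428 of 1746795, 496 of 145718 and 743 of 208722 listed iCLIP sites in the site lists of replicates 1, 2 and 3.

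The study asked how knocking down Musashi1, an RNA-binding protein encoded by MSI1, changes expression and splicing, and how that relates to the RNA positions the protein contacts. RNA-seq covered 3 control samples, labelled wild type, and 3 samples labelled as MSI1 knockdown. iCLIP, in which ultraviolet light fixes a protein to the RNA nucleotides it touches, was done with an antibody against MSI1 on 3 samples of wild-type cells. How MSI1 was knocked down, and what the control cells received, the labels do not say. Their protocol speaks of biological replicates being combined, whereas the titles number 3 separate samples a group, so the spread behind each p-value may be technical.

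Most receptor tyrosine kinases are single-pass membrane proteins that pair up when an extracellular ligand binds. They phosphorylate each other's tails and recruit adaptors that feed the RAS-ERK and PI3K-AKT cascades. EGFR, PDGFRA and MET are the receptors best known for amplification or activation in glioblastoma. Several receptors are often present on the same glioma cell, and the level of each is set partly by RNA processing and stability, the steps at which RNA-binding proteins such as Musashi1 act.

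Libraries held 32919299 to 47277016 gene counts. MSI1 itself was at 16.05, 17.7 and 7.59 CPM (read counts scaled to a common library total with TMM factors) in control replicates 1, 2 and 3 and at 3.15, 5.11 and 2.26 in the knockdowns, without overlap between the groups as labelled. On the first principal component control replicate 3 lay away from all 5 remaining libraries (a score of 80.6, against −40.9 to 10.4 for the others), and it had the lowest MSI1 level of the controls. Of 11 astroglial and glioma markers, VIM was at 2135 to 2817 CPM, CD44 at 3105 to 3938 CPM and OLIG2 at 0. The summed level of the list, most of it VIM and CD44, was 6826 to 7980 CPM in controls and 6408 to 7375 in knockdowns. Of 8 tested genes 1 passed the test described below, SOX2, at a mean of 152 CPM in controls and 89.9 in knockdowns. CD44 was also lower without overlap. FABP7 (means of 41.3 and 69.3 CPM) and SLC1A3 (12.6 and 22.4) were higher without overlap. GFAP, VIM, NES and S100B overlapped, GFAP at 18.6 to 106 CPM. The summed level of 4 leukocyte and microglia markers was 4.42 to 7.72 CPM in controls and 4.55 to 6.56 in knockdowns, most of it CD68, with PTPRC at most 0.0251 CPM. That of 4 epithelial markers was 0.965 to 2.37 and 1.41 to 2.84 CPM, most of it KRT19, with EPCAM at most 0.131 CPM. For 4 neuron markers it was higher, 61.3 to 67.1 CPM in controls and 63.5 to 69.6 in knockdowns, most of it GAD1 and SYT1. SNAP25 of that list was higher in the knockdowns without overlap (means of 1.93 and 3.94 CPM). For 3 oligodendrocyte markers the sum was 1.12 to 1.70 and 1.48 to 2.28 CPM, most of it MBP. In bulk RNA, fewer cells carrying a transcript and less transcript per cell cannot be told apart.

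Per length, the receptors of U251 cells spanned from AXL at the top to ERBB3 at the bottom. Levels here are CPM per kilobase of exon in the controls, as mean ± SD over 3 libraries. AXL, the receptor for the vitamin K-dependent ligand GAS6, was highest at 79.4 ± 18.6. PDGFRA, the receptor for platelet-derived growth factors that marks oligodendrocyte progenitors, followed at 58.3 ± 4.79, and MET, the hepatocyte growth factor receptor, at 37.4 ± 8.88. IGF1R, which binds insulin-like growth factors, stood at 24.6 ± 2.76 and EGFR, the receptor for EGF and TGFA, at 22.95 ± 0.677. The control libraries of IGF1R and EGFR overlapped, so their order is not resolved. FGFR1, a fibroblast growth factor receptor, was at 10.2 ± 3.49 and overlapped with ERBB2, the ligand-less partner of the EGFR family, at 5.89 ± 1.97. PDGFRB, the receptor that defines pericytes and other mural cells, was at 0.620 ± 0.232. ERBB3, a neuregulin receptor whose kinase is impaired, was at 0.216 ± 0.0649, with 38 to 58 reads per control library. The neighbours in this order other than the 2 overlapping pairs did not overlap. AXL thus had 367 times the mean level per length of ERBB3. Counting exons in place of whole genes gave values 1.18 to 1.42 times as high and the same rank for all 9.

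**Figure D1:**
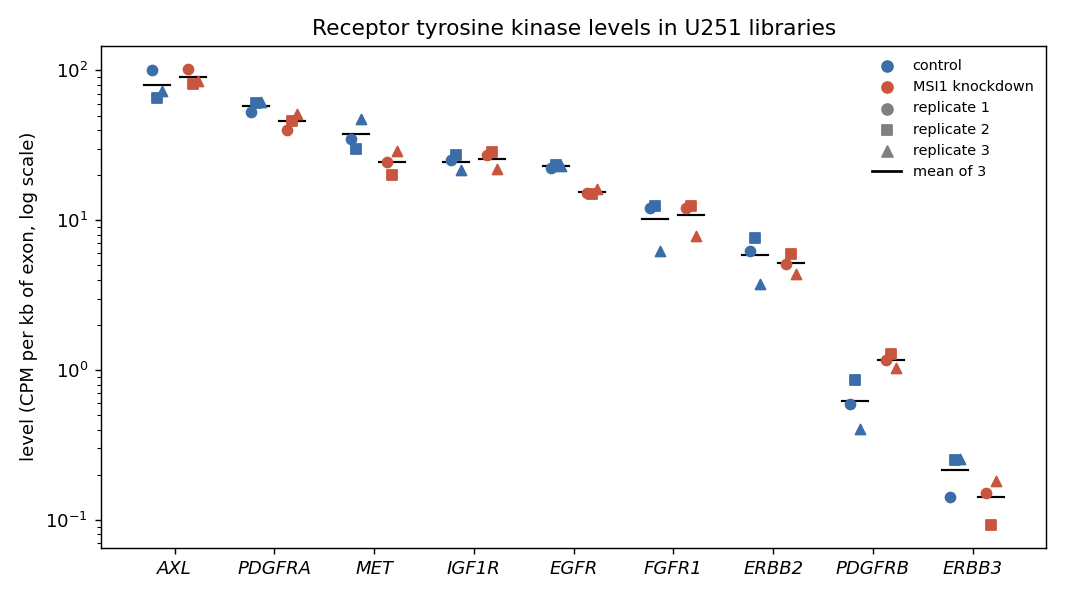
Level of each receptor in the 6 RNA-seq libraries, as CPM per kilobase of exon on a log axis, with circles, squares and triangles for replicates 1, 2 and 3 and a bar for the mean of 3. AXL is at the top in both groups and ERBB3 at the bottom, and the knockdown points of EGFR, PDGFRA and MET lie below their control points while those of PDGFRB lie above.

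After MSI1 knockdown, 3 well-expressed receptors, EGFR, MET and PDGFRA, were lower in all knockdown libraries than in any control, by 32.5%, 34.4% and 21.6% of the control mean. The scarce PDGFRB was higher in each, at 1.88 times the control mean. ERBB2, ERBB3, FGFR1, AXL and IGF1R overlapped between the groups. So 4 of 9 receptors did not overlap, against 22.8% of the 13856 genes tested (8.73% higher and 14.1% lower in the knockdown). Without regard to replicate numbers, 0 of 9 passed an adjusted p of 0.05 in edgeR's quasi-likelihood test, in which 1.67% of all genes passed (0.772% higher, 0.902% lower), and 4 of 9 had an unadjusted p below 0.05, against 15.5%. The same test with the replicate number as a block called those 4, with 3 lower and 1 higher, where 17.3% of all genes passed (10.3% lower, 7.04% higher). DESeq2 called 1, PDGFRB, against 5.05% of genes. Without control replicate 3, 0 of 9 passed in edgeR, against 7.31% of genes. MSI1 itself, at a log2 fold change of −1.97, had an adjusted p of 0.0699 in edgeR's quasi-likelihood test without the block. The 0 of 9 in that test thus does not show that the receptors stayed the same. The median log2 fold change of the 9 was −0.19, and that of all tested genes −0.04.

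EGFR lies on chromosome 7 at 55054219 to 55242525 (hg18, plus strand, 30 exons). Its level was 146, 154 and 152 CPM in control replicates 1, 2 and 3 and 100, 98.8 and 106 CPM in knockdown replicates 1, 2 and 3. The libraries of each group lay within a few CPM of one another, with a wide gap between the groups. The log2 fold change was −0.57, its standard error 0.12 (95% interval −0.89 to −0.24), and its adjusted p in edgeR's quasi-likelihood test was 0.0661, or 0.00673 with the block. Within each replicate number the knockdown had 0.689, 0.640 and 0.698 of the control level. With each library left out in turn the log2 fold change was −0.59 to −0.49 and no adjusted p fell below 0.0508, the value without control replicate 3.

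MET is on the same chromosome at 116099695 to 116225676 (plus strand, 21 exons). It was at 234, 200 and 315 CPM in the controls and at 163, 135 and 194 CPM in the knockdowns. The highest knockdown library, replicate 3, came close to the lowest control library, replicate 2, and the same library number was highest in both groups. The log2 fold change was −0.61 (standard error 0.21, adjusted p 0.225, or 0.00561 with the block). Within replicate numbers 1, 2 and 3 the knockdown had 0.696, 0.673 and 0.617 of the control level. Leaving out control replicate 3 while keeping its knockdown partner gave a log2 fold change of −0.34 (adjusted p 0.317).

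PDGFRA, on chromosome 4 at 54790021 to 54859169 (plus strand, 23 exons), was at 347, 397 and 405 CPM in the controls and at 264, 301 and 337 CPM in the knockdowns. The groups were separated by the narrow gap between knockdown replicate 3 and control replicate 1. Its log2 fold change was −0.35 (standard error 0.14, adjusted p 0.287, or 0.0213 with the block), and each knockdown had 0.758 to 0.831 of the control of its own number. With single libraries left out it ranged from −0.42 without control replicate 1 to −0.20 without knockdown replicate 1 (adjusted p 0.890), the libraries lowest in their group.

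PDGFRB, on chromosome 5 at 149473595 to 149515615 (minus strand, 23 exons), was at 3.38, 4.94 and 2.30 CPM in the controls and at 6.69, 7.29 and 5.94 CPM in the knockdowns. All 3 knockdown libraries were above all 3 controls, from 74 to 192 reads a library in controls and 236 to 285 in knockdowns. The log2 fold change was 0.90 (standard error 0.30, adjusted p 0.194), with an adjusted p of 0.0257 with the block and 0.0466 by DESeq2. The summed level of 5 fibroblast and pericyte markers moved with it, from 29.8 to 63.6 CPM in controls to 95.2 to 177 CPM in knockdowns. COL1A1 made up most of that sum, COL3A1, DCN and LUM were at most 0.235 CPM in every library, and the pericyte marker RGS5 was at 2.44 to 4.08 CPM in controls and 1.91 to 3.66 CPM in knockdowns. The part of these markers in the PDGFRB difference was not tested.

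The other 5 receptors did not separate the groups. AXL, on chromosome 19 at 46416948 to 46459511 (plus strand), was at 476, 309 and 344 CPM in controls and at 486, 386 and 402 CPM in knockdowns. Each knockdown was above the control of its own number, by 1.02 to 1.25 times, and replicate 1 was highest in both groups (log2 fold change 0.18, 95% interval −0.36 to 0.71). It was 0.38 without control replicate 1 and 0.05 without control replicate 2. IGF1R, on chromosome 15 at 97010284 to 97325282 (plus strand), was at 284, 304 and 243 CPM in controls and at 304, 319 and 247 CPM in knockdowns. Its groups were nearly the same within each replicate number, and the interval of its log2 fold change, −0.36 to 0.49, was among the narrower ones.

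FGFR1, on chromosome 8 at 38387813 to 38445509 (minus strand), was at 85.0, 88.2 and 43.9 CPM in controls and at 86.0, 87.8 and 55.6 CPM in knockdowns. ERBB2, on chromosome 17 at 35097919 to 35138441 (plus strand), was at 32.1, 39.2 and 19.3 CPM in controls and at 26.1, 30.7 and 22.6 CPM in knockdowns. In both genes replicate 3 was the low library of each group, and control replicate 3 the lowest of all 6. The log2 fold change was 0.08 for FGFR1 (95% interval −0.76 to 0.92) and −0.19 for ERBB2 (−0.95 to 0.57), and without control replicate 3 they were −0.12 and −0.37. ERBB3, on chromosome 12 at 54760159 to 54783395 (plus strand), was at 0.840, 1.49 and 1.53 CPM in controls and at 0.893, 0.551 and 1.08 CPM in knockdowns. At this depth, with 21 to 58 reads a library, its interval ran from −1.64 to 0.44 on the log2 scale, too wide to place it.

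**Figure D2:**
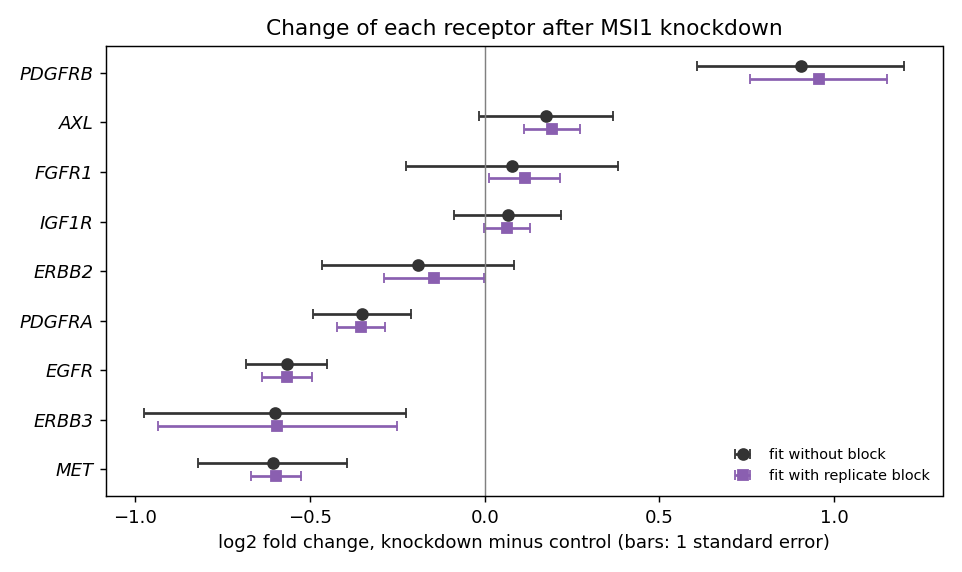
Log2 fold change of each receptor, knockdown minus control, with bars of 1 standard error, from the fit without a block (circles) and with the replicate number as a block (squares). The estimates of the 2 fits lie close together, at −0.57 and −0.57 for EGFR and 0.90 and 0.96 for PDGFRB, while the bars are shorter with the block.

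The genes whose levels followed EGFR most closely over the 6 libraries were NCOR1, a nuclear receptor corepressor, YARS, the tyrosyl-tRNA synthetase, and MYST4, a histone acetyltransferase, with Pearson correlations of log2 CPM of 0.998 each. Of all tested genes, 5.20% correlated with EGFR above 0.9. For PDGFRB the closest were MAL (0.999), SOX15 (0.995) and ITGA9 (0.994), and 2.68% of genes were above 0.9. These are descriptions of 6 libraries that fall into 2 groups.

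Among the ligands that these receptors bind, 2 of 20 tested genes rose and 0 fell by edgeR's quasi-likelihood test without the block, and 5 rose and 1 fell with it. With the block that is 30% of the list, against 17.3% of all genes (1.67% without it). HBEGF, the membrane-anchored heparin-binding ligand of EGFR, was at 5.13, 3.88 and 6.26 CPM in controls and at 14.4, 11.99 and 17.8 CPM in knockdowns. The knockdown libraries were all well above the highest control, and the log2 fold change was 1.53 (standard error 0.25, adjusted p 0.0373). FGF5, a fibroblast growth factor that signals through FGFR1, was at 9.77, 7.84 and 11.6 CPM in controls and at 23.8, 18.9 and 23.8 CPM in knockdowns, again without overlap (1.19, adjusted p 0.0441). The median log2 fold change of the ligands was 0.12. HGF, the ligand of MET, was counted at 1 to 16 reads a library and was not tested.

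In 18 other tested receptor tyrosine kinases, 1 rose and 0 fell, or 4 and 2 with the block (33.3%, against 17.3% of all genes, and 1.67% without the block). Their median log2 fold change was 0.30. The one that rose was ROS1, a receptor known for fusions in glioma, from 0.309, 0.591 and 0.965 CPM in controls to 3.10, 4.07 and 5.41 CPM in knockdowns (log2 fold change 2.77, standard error 0.44, adjusted p 0.0330). KDR, a receptor for vascular endothelial growth factor, was at 12.9 to 14.3 CPM in controls and 21.1 to 24.7 CPM in knockdowns (adjusted p 0.0695, or 0.00980 with the block), while the other 3 endothelial markers, PECAM1, CDH5 and VWF, were at most 0.997 CPM. INSR, the insulin receptor and closest relative of IGF1R, was counted at no more than 4 reads in any library.

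Sheddases and co-receptors, which release ligands or hold receptors at the membrane, had 0 of 19 higher and 1 lower, or 1 and 4 with the block (26.3%, against 17.3% of all genes, and 1.67% without the block). ITGB1, the beta 1 integrin chain that works beside several of these receptors, was at 627, 549 and 913 CPM in controls and at 277, 216 and 281 CPM in knockdowns, far below the lowest control (−1.43, standard error 0.22, adjusted p 0.0302). The calls of HBEGF, FGF5, ROS1 and ITGB1 were kept without control replicate 3 and lost on leaving out any 1 of the other 5 libraries, with adjusted p-values of up to 0.193, 0.224, 0.141 and 0.202. All 4 also passed with the block, a refit of the same counts by which they were picked.

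Downstream of the receptors, 0 of 34 adaptors and RAS-ERK genes, 0 of 25 PI3K-AKT genes and 0 of 32 negative regulators passed without the block. With it, 3 rose and 5 fell, 3 rose and 5 fell, and 6 rose and 7 fell. These are 23.5%, 32% and 40.6% of the lists, against 17.3% of all genes. Their median log2 fold changes were −0.10, −0.04 and 0.09. The lowest p-values were those of STAT5B, a transcription factor phosphorylated by receptor kinases (110 ± 12.6 CPM in controls and 65.6 ± 1.87 in knockdowns, SD, n = 3, adjusted p 0.0519 by edgeR), and of SHC1, the adaptor that links phosphorylated receptors to RAS (163 ± 44.2 and 336 ± 58.7, adjusted p 0.0785). In the PI3K-AKT list they were FOXO1, a transcription factor that AKT keeps out of the nucleus (35.5 ± 5.50 and 19.7 ± 1.10, adjusted p 0.0614), and PHLPP2, a phosphatase of AKT (104 ± 13.7 and 167 ± 14.3, adjusted p 0.0718). Among the negative regulators they were NEDD4, a ubiquitin ligase (178 ± 36.3 and 341 ± 25.6, adjusted p 0.0504), and LRIG3, a membrane protein that acts on receptor levels (81.8 ± 9.05 and 53.7 ± 3.82, adjusted p 0.0939). These 6 genes did not overlap between the groups, and each passed with the block. Over all genes 22.8% did not overlap and 17.3% passed with the block. The 6 were picked for low p-values in the same libraries, so neither result is further support for them.

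No receptor exon was called as changed in usage, by a test that gave few low p-values over all genes. Of their 215 exons 166 could be tested, 0 of the 28 of ERBB3, with each exon set against the rest of its gene. By edgeR's diffSpliceDGE 0 passed, 0 of 123109 exons (0%) passed over all genes, and no receptor exon had an unadjusted p below 0.05, against 263 exons, or 0.214%, over all genes. That share is below what p-values of unchanged exons would give, so the absence of calls does not show that exon usage stayed the same. With the replicate block 0 receptor exons passed, and 0.00812% of all exons. The exon with the lowest p in each gene was EGFR exon 19, ERBB2 exon 9, PDGFRA exon 2, PDGFRB exon 22, MET exon 1, FGFR1 exon 3, AXL exon 1 and IGF1R exon 3, and the adjusted p was 1 for each. Exon numbers run from the transcription start of the deposited gene models, which merge the exons of several isoforms, and so can differ from the usual ones.

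In several of these exons 1 control library differed from the other 5. EGFR exon 19 (142 nucleotides, 55208170 to 55208311) took 1.32%, 1.25% and 0.336% of the EGFR exon counts in control replicates 1, 2 and 3 and 1.40%, 1.76% and 1.33% in the knockdowns. Control replicate 3 was low and the other controls were next to the lower knockdowns. AXL exon 1 had the same shape, at 1.07%, 1.37% and 0.261% in controls and 1.14%, 1.83% and 1.23% in knockdowns, as did MET exon 1 at 0.616%, 0.770% and 0.136% in controls and 0.478%, 0.995% and 0.449% in knockdowns. The last exon went the other way: its share in EGFR was 36.9%, 37.7% and 51.9% in controls and 42.6%, 35.5% and 42.2% in knockdowns, and in AXL 39.6%, 38.3% and 56.8% in controls and 42.0%, 35.8% and 45.7% in knockdowns. For 6 of the 9 receptors control replicate 3 had the highest last-exon share of the 6 libraries, and its median over the 8 receptors other than ERBB3 was 44.1%, against 34.5% to 39.9% in the other libraries.

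EGFR exons 2 to 7, which the EGFRvIII deletion of glioblastomas removes, were present in U251 RNA. Their read density was 0.846, 1.01 and 1.05 of that of the downstream exons 8 to 15 and 18 to 29 in control replicates 1, 2 and 3, and 0.836, 0.947 and 0.937 in the knockdowns. The 2 groups overlapped at a ratio near 1. Exons 16 and 17 of the gene model, which lie between exons used by the full-length receptor, held 4 to 13 reads a library and 0.00617 to 0.0238 of the density of exons 15 and 18.

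Some exons of the gene models stood out for their level rather than their change, and were picked after their values were seen. FGFR1 exon 3 (267 nucleotides, chromosome 8 at 38406357 to 38406623) had 0.140, 0.242 and 0.156 of the density of its neighbours in controls and 0.188, 0.169 and 0.0835 in knockdowns. It was thus a minority exon in all 6 libraries. FGFR1 exon 7 of the gene model (1366 nucleotides) had 0.115 to 0.119 of its neighbours in controls and 0.109 to 0.124 in knockdowns. Where a model exon merges those of several isoforms, its density averages over used and unused length. How often the parts of exon 7 were used was not tested. MET exon 14 (141 nucleotides), which encodes the juxtamembrane segment whose skipping activates the receptor in some tumours, had 1.19, 1.12 and 1.18 of the density of exons 13 and 15 in controls and 1.06, 1.00 and 0.996 in knockdowns. The groups did not overlap, but by diffSpliceDGE the exon differed from the rest of MET by a log2 fold change of −0.24 at an unadjusted p of 0.459. The density stayed near that of its neighbours in both groups. AXL exon 10 (27 nucleotides) was at 0.825 ± 0.0908 of its neighbours in controls and 0.842 ± 0.0165 in knockdowns (SD, n = 3). In ERBB2 the first 5 exons of the gene model held 19 to 47 reads a library, at 0.102 ± 0.0290 of the density of exons 6 to 30 in controls and 0.0754 ± 0.0138 in knockdowns.

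**Figure D3:**
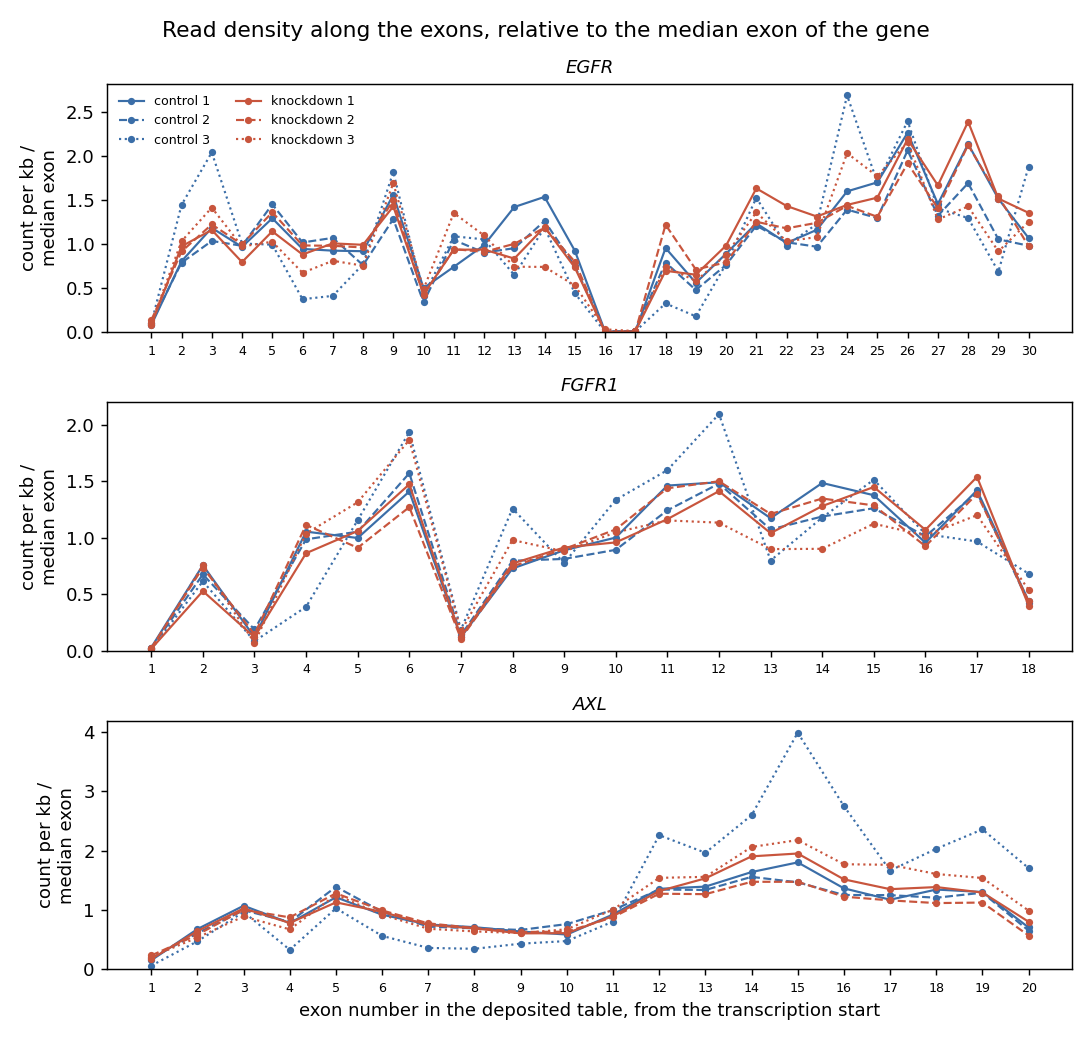
Reads per kilobase of each exon, divided by the median exon of the gene, along EGFR, FGFR1 and AXL, with blue lines for controls and red for knockdowns and solid, dashed and dotted lines for replicates 1, 2 and 3. EGFR exons 16 and 17 and FGFR1 exons 3 and 7 have a low mean read density in all 6 libraries. Control replicate 3 (dotted blue) departs from the others in AXL from exon 12 on.

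MSI1 iCLIP sites were spread very unevenly over the receptors. Each list gives single nucleotides with a strand, a gene and a value from 0 to 1 that was read as a p-value. Every listed nucleotide is counted as a site here, whatever its value. Over all genes 4.404%, 2.767% and 3.744% of the sites in lists 1, 2 and 3 had a value of at most 0.05. Among the receptor sites 389 of 8428, 13 of 496 and 25 of 743 did, so most sites counted here lay above that limit. No control immunoprecipitation is among the 9 samples, and the read depth behind the sites is not given in the sources used here, so site counts are described and not tested. IGF1R held 6237, 366 and 510 sites in lists 1, 2 and 3. It ranked 15, 14 and 19 among all genes by sites on its own strand. EGFR followed with 1188, 59 and 136 sites (ranks 200, 334 and 160) and PDGFRA with 706, 29 and 41 (ranks 408, 964 and 1027). MET held 109, 23 and 18, AXL 79, 10 and 23, and FGFR1 79, 3 and 8. The 3 receptors lowest in RNA were also lowest in sites: ERBB2 held 18, 0 and 1, PDGFRB 11, 2 and 1, and ERBB3 1, 4 and 5, of which 8 were on the opposite strand. List 1 is the longest list over all genes, and it held 8428 of the 9667 sites of the 9 receptors.

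Site densities per length fell over a wide range from receptor to receptor. In the exons, summed over the lists, IGF1R had 28.8 sites per kilobase, PDGFRA 24.3, AXL 19.8, EGFR 16.7, MET 7.19, FGFR1 3.53, PDGFRB 1.23, ERBB2 0.585 and ERBB3 0.168. All genes together had 3.61, 0.396 and 0.761 exonic sites per kilobase in lists 1, 2 and 3. IGF1R, PDGFRA, AXL, EGFR and MET lay above these values in each list. The pool holds all 20848 counted genes, of which 14914, 10702 and 11615 had an own-strand site in lists 1, 2 and 3. The named receptors had a higher control RNA level per length than 83.9% (EGFR) to 96.1% (AXL) of all counted genes. The part of RNA level in their site densities was not tested. In the introns, again summed over the lists, IGF1R had 22.2 sites per kilobase, PDGFRA 9.76 and EGFR 6.99. FGFR1 had 1.17, MET 0.838 and AXL 0.370. All genes together had 1.28, 0.0905 and 0.124 in lists 1, 2 and 3 taken singly. List by list, IGF1R, PDGFRA and EGFR lay above these values and FGFR1 and AXL below them. MET was above only in list 2, at 0.109. AXL, the most abundant receptor RNA, thus had 94 of its 108 own-strand sites in exons, whereas IGF1R had 324 of 7077. IGF1R has 303.8 kilobases of intron and AXL 37.8, and the part of intron length in the counts per gene was not tested.

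**Figure D4:**
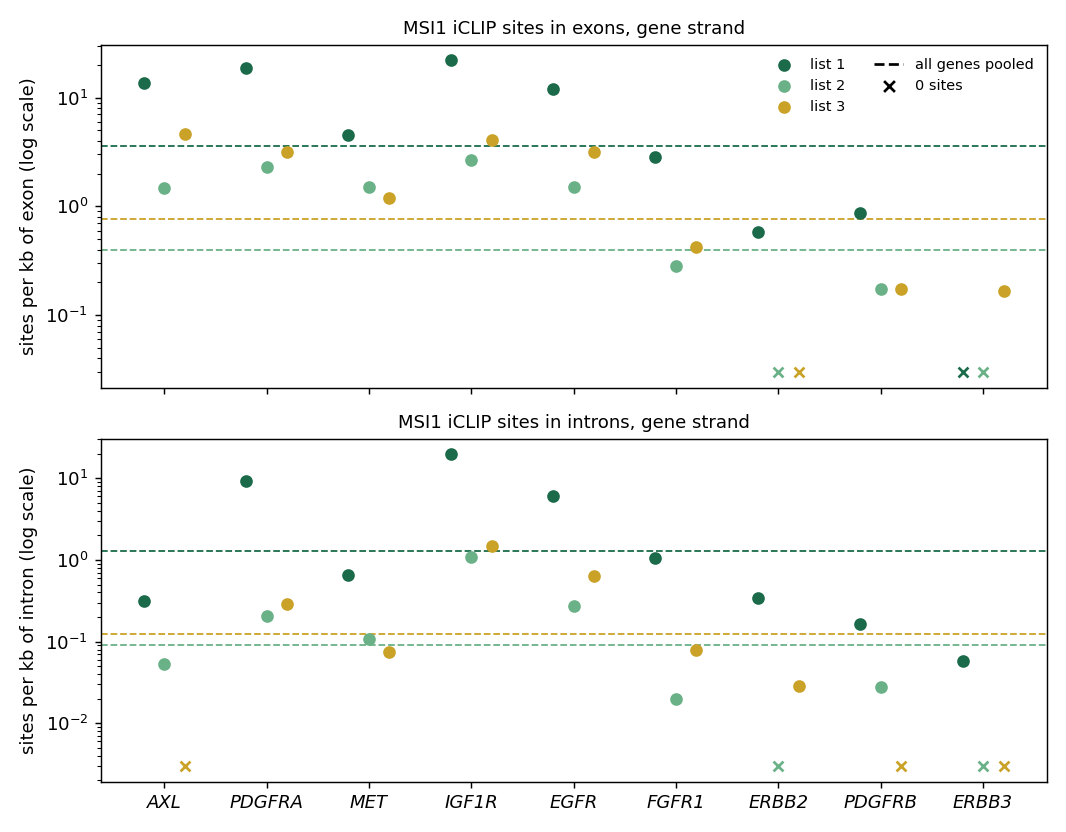
MSI1 iCLIP sites on the gene's own strand per kilobase of exon (top) and intron (bottom) for each receptor, on log axes, with receptors ordered by RNA level, 1 colour a list, dashed lines for all genes pooled and crosses for 0 sites. IGF1R, PDGFRA and EGFR lie above the line of each list in both panels, while AXL is above it in exons and below it in introns.

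The intronic sites of EGFR and PDGFRA lay mostly in the first intron. In EGFR, intron 1 held 1048 of 1107 intronic sites in list 1, or 94.7% (95% Wilson interval 93.2% to 95.9%, counting error only), 93.9% in list 2 (83.5% to 97.9%) and 94.7% in list 3 (89.0% to 97.6%), on 67.6% of the intron length. Per kilobase that was 8.53 sites in intron 1 and 1.00 in the other introns of list 1. In PDGFRA, intron 1 held 94.5% (92.3% to 96.1%), 84.6% (57.8% to 95.7%) and 66.7% (43.8% to 83.7%) of the intronic sites on 46.9% of the intron length. Over 17125 genes with at least 3 exons the first intron held 32.6%, 28.0% and 28.6% of intronic sites on 22.4% of the length, or 1.87 and 1.12 sites per kilobase inside and outside it in list 1. IGF1R differed from both, with 13.4%, 10.9% and 8.35% of its intronic sites in intron 1 on 19.1% of the length. Its sites lay mostly in intron 2, which held 5027, 287 and 407.

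Along the gene the 3 profiles differed. In list 1 the first 10 kilobases of EGFR held 195 sites, and the count fell to 32 in the bin from 110 kilobases and 5 in the bin from 130. PDGFRA had 472 of its sites in the first 10 kilobases and 4 in the bin from 40. In IGF1R the first 10 kilobases held 276 sites and the bin from 40 held 97, and the count rose to 556 in the bin from 60, just after exon 2, and declined over intron 2 to 92 in the bin from 230 and to 18 in the bin from 240. All 3 genes rose again over the last exon, to 64 in the last bin of EGFR, 123 in that of PDGFRA and 125 in that of IGF1R.

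**Figure D5:**
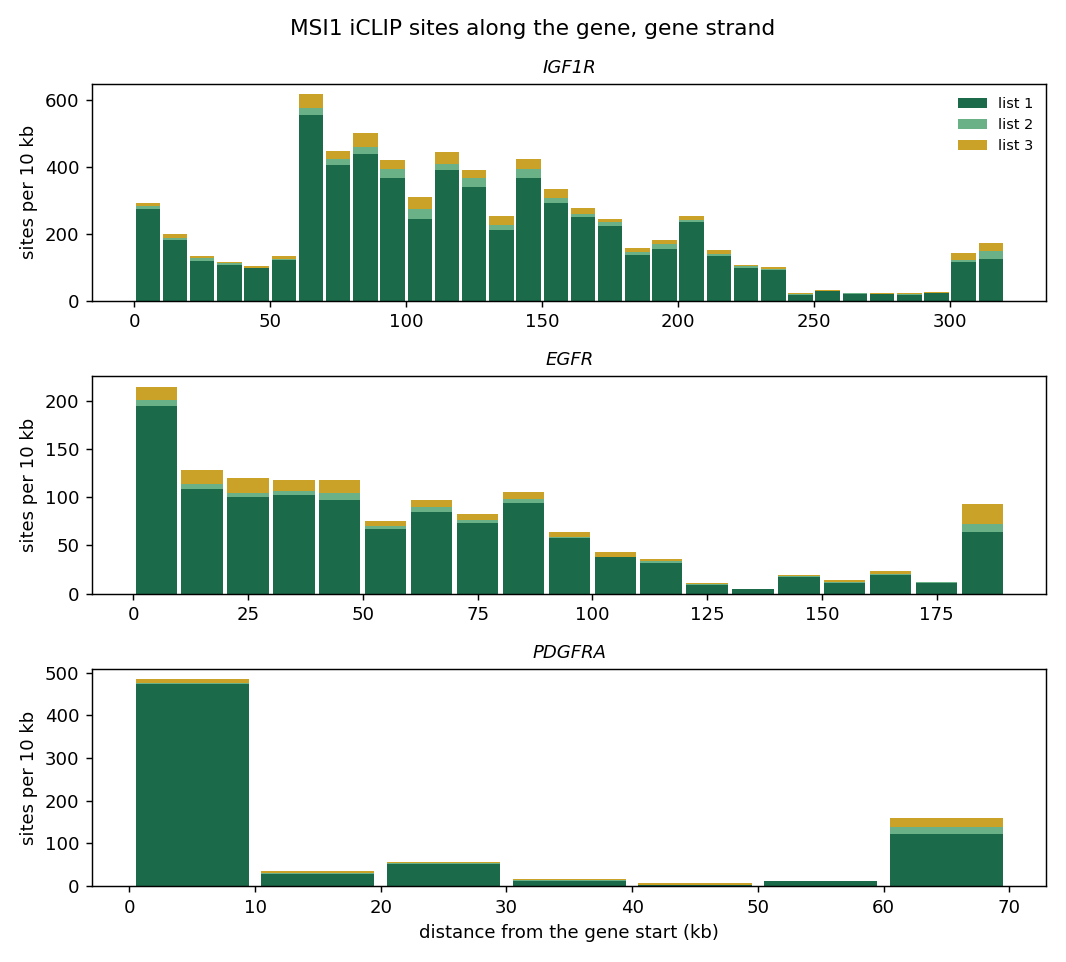
MSI1 iCLIP sites on the gene's own strand in bins of 10 kilobases from the gene start, stacked over the 3 lists, for IGF1R, EGFR and PDGFRA. Counts are high near the start of EGFR and PDGFRA and from 60 kilobases on in IGF1R, fall along the gene and rise again in the bin of the last exon.

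In the exons, sites gathered in the last exon, which holds most of the 3′ untranslated region. PDGFRA had 113 of 124, 15 of 15 and 21 of 21 exonic sites in its last exon in lists 1, 2 and 3, on 47.5% of the exonic length. AXL had 52 of 65, 6 of 7 and 22 of 22 there on 46.7%, EGFR 61 of 79, 8 of 10 and 19 of 21 on 31.7%, IGF1R 199 of 248, 27 of 30 and 41 of 46 on 66.4%, and MET 20 of 30, 7 of 10 and 4 of 8 on 37.4%. Over all genes with at least 3 exons the last exon held 73.3%, 84.0% and 86.1% of exonic sites on 45.8% of the length, so a majority in the last exon was general. MET (66.7%, 70% and 50%) and FGFR1 were below these shares in each list, FGFR1 with 10 of 20 exonic sites of list 1 in its last exon and 0 of 2 and 1 of 3 in lists 2 and 3.

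Few positions recurred in the lists. Exactly 4 nucleotides of the receptors were in all 3 lists: chr15:97079012-97079012 in IGF1R intron 2, 10153 nucleotides from exon 2, chr15:97323966-97323966 in the IGF1R last exon, chr19:46459300-46459300 in the AXL last exon, and chr8:38400015-38400015 in FGFR1 exon 7. The authors' values at these positions were 0.0897, 0.0403 and 0.245 for the intronic IGF1R site in lists 1, 2 and 3, 0.762, 0.624 and 0.821 for the other, 0.612, 0.194 and 0.308 in AXL and 1, 1 and 1 in FGFR1, so that only 1 of these 12 values was below 0.05. Over all genes 4446 positions were in all 3 lists and 42985 in at least 2, from 2101235 listed sites. The receptors hold 9667 of those sites. Recurrence was thus rare over all genes as well, and not particular to the receptors. In at least 2 lists there were 166 receptor positions, of which 130 were in IGF1R, 14 in EGFR, 14 in PDGFRA, 6 in AXL, 1 in MET and 1 in FGFR1. Allowing 5 nucleotides, 87 sites of the receptors had a neighbour in all 3 lists, of which 68 were in IGF1R, 10 in PDGFRA and 3 each in EGFR, FGFR1 and AXL. Adjacent nucleotides were counted separately. IGF1R intron 2 held 27.4 sites per kilobase in list 1, and the part of site density in these counts was not tested. All 6 AXL positions lay in the last exon, and 9 of the 14 PDGFRA positions were in its last exon.

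Sites and RNA differences of these 9 genes are set side by side here without a test. IGF1R, with the most sites, had a log2 fold change of 0.07. EGFR and PDGFRA, with the next most, were lower in the knockdowns, at −0.57 and −0.35. MET, at −0.61, held 150 sites in all, against 1383 in EGFR. PDGFRB, the receptor that was higher without overlap, held 14. AXL held 112 at a log2 fold change of 0.18, with more exonic sites per kilobase than EGFR (19.8 against 16.7). FGFR1 held 90 at 0.08, ERBB2 19 at −0.19 and ERBB3 10 at −0.60, all overlapping between the groups, as did AXL. These totals are not scaled by gene length.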

How the data were processed

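Titles gave the groups (control RNA-seq, knockdown RNA-seq, control iCLIP, 3 samples each) and the replicate numbers. Per the file headers and values, raw read counts were deposited for each gene and each exon, and iCLIP sites came with a value from 0 to 1, read here as the authors' p-value. The submitters' processing notes name hg18. No source used here names the aligner, the counter and its strand setting, or the site caller, so where genes overlap on opposite strands their reads may be mixed.

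The main test was edgeR 4.0.16 (R 4.3.3) quasi-likelihood on gene counts, with TMM scaling, filterByExpr (13856 genes kept), group alone in the design, and Benjamini-Hochberg adjustment over all genes at 0.05. Log2 CPM used a prior count of 2. Standard errors from edgeR were the absolute log2 fold change divided by the square root of the F statistic. The 95% intervals were built from them with 4 degrees of freedom. They can be wider than the p-value of the quasi-likelihood test implies, as for PDGFRA (−0.74 to 0.04 at an unadjusted p of 0.0396). Exons were tested with diffSpliceDGE, each against its gene. Both tests were tried on simulated counts with a fixed dispersion and no outlying library. That trial does not show how the tests perform on these libraries. Sites were placed by the deposited exon tables. DESeq2 1.42.0, a block, other filters and left-out libraries were alternatives. Whether numbers pair the samples was read from the correlation, over genes, of each library's deviation from its group mean: 0.32, 0.73 and 0.75 for control and knockdown of number 1, 2 and 3. All exceed the bound of 0.1, so the pairing was accepted for the fit with the block, although control replicate 1 was closer to knockdown replicate 2 (0.49). The 3 correlations are not independent, because deviations from a group mean cancel within the group. Calls with the block rest on this pairing, in a fit with 2 residual degrees of freedom. Every pair of libraries differed beyond counting noise, with a chi-square per gene of at least 22.7.

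The 9 genes and the lists of ligands, receptors, adaptors, PI3K-AKT genes, negative regulators, co-receptors and markers were chosen with earlier results of these data known. The text names all 9, in each list up to 4 genes that passed or else the 2 with the lowest p, the 3 genes most correlated with each of the 2 receptors of lowest p, and the exon of lowest p in each receptor, apart from exons and markers said to be picked later or given as checks. KDR and the exons of MET, AXL, ERBB2 and FGFR1 given for their level were named after their values were seen.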

Additional observations from a re-analysis of the deposited data

How the results depend on the processing

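Of 90 values of the 9 log2 fold changes under other settings, 81 kept their direction and side of the threshold, 5 passed it (EGFR, MET, PDGFRA and PDGFRB with the replicate block, PDGFRB by DESeq2) and 4 turned sign: ERBB2 without control replicate 2 (log2 fold change 0.0408), FGFR1 without control replicate 3 (−0.1231) and without knockdown replicate 2 (−0.0334), and IGF1R without knockdown replicate 2 (−0.009). With each library left out in turn ERBB2 ranged from −0.3722 to 0.0408, ERBB3 from −0.8383 to −0.3751, AXL from 0.05 to 0.3788, FGFR1 from −0.1231 to 0.3138 and IGF1R from −0.009 to 0.2219. The cause was not tested. With the replicate block, 4 receptors, 46 genes of the 6 pathway lists (22 higher) and 2398 of all genes passed, against 0, 4 and 232 without it, and 10 of all exons against 0. With DESeq2 the counts were 1, 15 and 715. With DESeq2 size factors 191 genes passed, and 202 with no filter on low counts. With 1 library left out at a time 0 receptors, 0 to 22 pathway genes, 0 to 1028 of all genes and 0 to 1 of all exons passed, and the upper ends are those without control replicate 3. No receptor exon passed under any of these settings. Limiting sites to an authors' value of at most 0.05 left 389, 13 and 25 receptor sites in lists 1, 2 and 3, and at most 0.01 left 23, 0 and 0. Sites with such low values were a small part of the whole lists too. Counting own-strand sites by gene span gave 8393, 483 and 724. Shared positions numbered 4 in all 3 lists, 166 in at least 2 and 87 within 5 nucleotides. ERBB3 and PDGFRB are limited by their read counts, and lists 2 and 3 by their length.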
